A study of Bos taurus with 64 samples.

Results

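SPOCK2 and HYAL2 are 2 genes of the extracellular matrix that were followed in the muscles of 32 Normand cows slaughtered under stress or limited stress. The members were all the probes that the array files name SPOCK2 or HYAL2, which gave 3 of the 13285 probes and 2 of the 5449 gene names of the array. SPOCK2 had 2 probes and HYAL2 had 1 probe. Both genes were chosen by their measured difference with stress in these same muscles, so their stress differences are given as a description, with no test.

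SPOCK2 encodes testican-2, a secreted proteoglycan of the SPARC family whose core protein carries heparan sulphate and chondroitin sulphate chains. The testicans combine a follistatin-like and Kazal-like part, a calcium-binding part and a thyroglobulin type 1 domain, and some of them act on matrix metalloproteinases. HYAL2 encodes a hyaluronidase anchored at the cell surface, which cuts the long chains of hyaluronan into fragments that lysosomal hyaluronidases such as HYAL1 degrade further. In skeletal muscle, hyaluronan and the proteoglycans fill the connective tissue around the fibres and the vessels.

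RNA of the m. longissimus thoracis (LT), a muscle that supports the body, and of the m. semitendinosus (ST), a muscle of the hind limb used in locomotion, was hybridized to 64 single-colour arrays, so that each cow had 1 array per muscle. All cows were 4.5 ± 0.1 years old and had received for 101 d a straw and concentrate ration with 40 g of lipids per kg of dry matter from linseed and rapeseed. The 16 stressed cows, labelled Moderated stress, travelled alone in a lorry and spent 30 min in a labyrinth on an unfamiliar farm, while the 16 others were handled with limited stress. In each of these groups, 8 cows received the ration alone (control diet, labelled Lipid-rich) and 8 received it with vitamin E and plant extracts rich in polyphenols (EP diet, labelled Lipid VitE PERP). This gave 8 groups of 8 arrays over the muscles, and the muscles were taken within 15 min of slaughter.

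The signals are intensities of the spots. The 75th percentile of the spots of an array ranged from 2470 to 4202 units, and each signal is given as a percent of this percentile or as the log2 of this ratio. The share of spots well above background ranged from 71.4% to 80.9% over the arrays. The 8 muscle fibre genes that were fixed as markers had a summed signal with a median of 45871% to 50684% of the 75th percentile in the 4 groups of muscle and stress. The 4 slides of the LT and the 5 slides of the ST were different ones, with no scan day in common.

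The probes are shown because they read different stretches of the transcripts and did not give the same signal. The positions are those of the array files on the bovine assembly HGSC Btau_3.1, and the files do not give the exon or the UTR of a probe. The distal SPOCK2 probe A_73_112449 lies at chr28:27537348-27537407 on the - strand, from position 4986 of the transcript. Its last 30 bases are shown, all of them in capitals because a probe of the custom probe set Target1612 shares them.
SPOCK2, distal probe: ATTAACTCAGCCTAAGAAAGCAAGTACACT
The second SPOCK2 probe, A_73_111132, lies at chr28:27541187-27541246 on the - strand, from position 1245 of the transcript. It reads without a stop over 19 codons in the frame in which the 12 bases in capitals code for the residues C, W, C and V, the run that names the thyroglobulin type 1 domain.
SPOCK2, CWCV probe: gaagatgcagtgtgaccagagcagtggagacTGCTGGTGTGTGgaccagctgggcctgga
The HYAL2 probe A_73_110321 lies at chr22:50932806-50932865 on the + strand, from position 1828 of the transcript. Its last 30 bases are shown with the repeat of a unit of 3 bases in capitals.
HYAL2 probe: tagtTTATTATTATTATTttggggtctctt

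In the LT, the SPOCK2 signal of the distal probe was higher in stressed cows. In cows handled with limited stress it had a lowest value of 4.70%, a median of 19.9% and a highest value of 81.2% of the 75th percentile (n = 16). In stressed cows the lowest value was 25.5%, the median 44.2% and the highest 264% (n = 16). The groups overlapped, since 2 stressed cows were above the highest cow with limited stress, but all 16 stressed cows were above the median of the limited stress group. The other end of the range was more separate, as 11 of the 16 cows with limited stress were below the lowest stressed cow. The mean log2 signal was -2.25 ± 1.10 (SD, n = 16) with limited stress and -0.92 ± 0.82 with stress, a difference of 1.33 (SE 0.337) on the log2 scale or 2.52-fold. Across all probes tested with limma in the LT, 4.38% differed with stress at an adjusted p under 0.1, and 2.48% were higher.

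In the ST, the SPOCK2 signal was also higher in stressed cows, with a larger difference of the means. With limited stress the lowest value was 5.74%, the median 11.1% and the highest 47.2% (n = 16). With stress the lowest value was 7.76%, the median 41.9% and the highest 126% (n = 16). Only cow301 among the stressed cows was below the median of the limited stress group, and 7 stressed cows were above its highest value. The mean log2 signal was -3.03 ± 0.90 (SD, n = 16) with limited stress and -1.17 ± 1.003 with stress, a difference of 1.86 (SE 0.324) or 3.63-fold. In the ST, 4.23% of all probes tested differed with stress by limma at an adjusted p under 0.1, and 1.59% were higher. The stress difference of SPOCK2 was larger in the ST than in the LT by 0.53 (SE 0.477), about the size of its error. Without cow287, whose value stood apart, the LT difference was 1.18.

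HYAL2 had a higher signal in stressed cows too, with smaller differences and less spread between cows than SPOCK2. In the LT, the lowest, median and highest values were 41.9%, 57.4% and 72.2% with limited stress. They were 56.1%, 73.7% and 119% with stress (n = 16 each). All but 1 of the stressed cows were above the median of the limited stress group, and 8 of the 16 were above its highest value. The mean log2 signal was -0.85 ± 0.22 (SD, n = 16) with limited stress and -0.40 ± 0.31 with stress, a difference of 0.45 (SE 0.0961) or 1.36-fold. With scaling on the control probes it was 0.27 (SE 0.181), where the median over all probes was -0.23. The paper also scaled on the median of control probes, but with raw intensities. Here the median was taken over control spots after background subtraction and was only 1.73 to 6.36 units over the arrays. This scaling therefore divides by a signal near background and is not the same as that of the paper.

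In the ST, HYAL2 ranged from 40.6% to 57.6% with a median of 48.1% in the limited stress group. In stressed cows it ranged from 52.2% to 101% with a median of 64.8% (n = 16 each). All 16 stressed cows were above the median of the limited stress group and 13 of them were above its highest value. The mean log2 signal was -1.02 ± 0.14 (SD, n = 16) with limited stress and -0.58 ± 0.26 with stress, a difference of 0.44 (SE 0.0771) or 1.35-fold. With scaling on the control probes it was 0.53 (SE 0.181), where the median over all probes was 0.03. The stress difference of HYAL2 in the ST minus that in the LT was -0.01 (SE 0.123), and 0.26 (SE 0.252) with that scaling. The paper lists HYAL2 among the genes that differed in the ST only, and SPOCK2 among those of both muscles. RNA of a whole muscle sample was measured, so more cells that express a gene and more RNA of this gene per cell cannot be told apart.

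**Figure D1:**
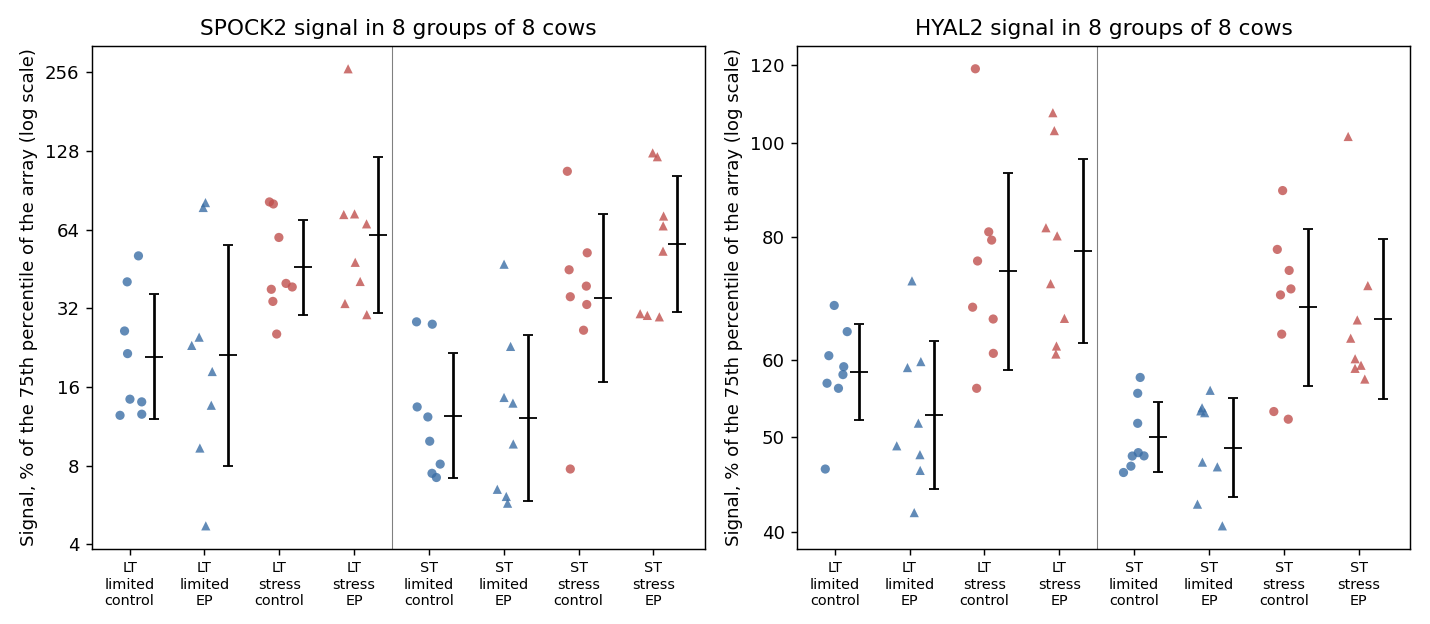
Signal of SPOCK2 (distal probe) and HYAL2 as a percent of the 75th percentile of the array, on a log scale, in 8 groups of muscle, stress and diet. Points are cows (circles control diet, triangles EP diet, blue limited stress, red stress), and the black marks are the mean of the log2 values with 1 SD (n = 8). The SPOCK2 values of the LT reach from 4.70% to 264%, while those of HYAL2 stay between 41.9% and 119%.

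In the order of the mean log2 signals over the 8 groups, the 4 groups of stressed cows came first for both genes, followed by the LT and then the ST of cows with limited stress. By this mean SPOCK2 was highest in the LT of stressed cows on the EP diet (-0.72) and lowest in the ST of cows with limited stress on the EP diet (-3.04). By the median it was highest in the ST of stressed cows on the EP diet (59.5%) and lowest in the ST of cows with limited stress on the control diet (11.1%). No pair of neighbours in this order of SPOCK2 differed by more than the smaller SD of the pair. The widest step, between the LT and the ST of cows with limited stress on the control diet, was 0.75 beside SDs of 0.79 and 0.80. HYAL2 was highest by the mean log2 in the LT of stressed cows on the EP diet (-0.37) and lowest in the ST of cows with limited stress on the EP diet (-1.03), while its lowest median was that of the control diet there (48.1%). Its only step wider than the smaller SD was the one that separated stressed cows (ST, EP diet, -0.60) from cows with limited stress (LT, control diet, -0.78), a step of 0.18 beside an SD of 0.16.

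The slides did not hold the groups in equal numbers, so the stress differences were also taken within slides. In the LT, SPOCK2 was higher in stressed cows on 4 of 4 slides, by 0.41 to 2.60 on the log2 scale. In the ST, it was higher on 5 of 5 slides, by 0.62 to 3.52. With the slide as a block in the fit, the SPOCK2 differences were 1.47 (SE 0.333) in the LT and 1.81 (SE 0.375) in the ST. HYAL2 was higher in stressed cows on 4 of 4 slides in the LT, by 0.11 to 0.78, and on 5 of 5 slides in the ST, by 0.19 to 1.05. Its differences with the slide as a block were 0.45 (SE 0.102) and 0.46 (SE 0.0939). A slide held between 1 and 6 arrays of a stress group, so a difference within 1 slide can rest on a single cow.

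**Figure D2:**
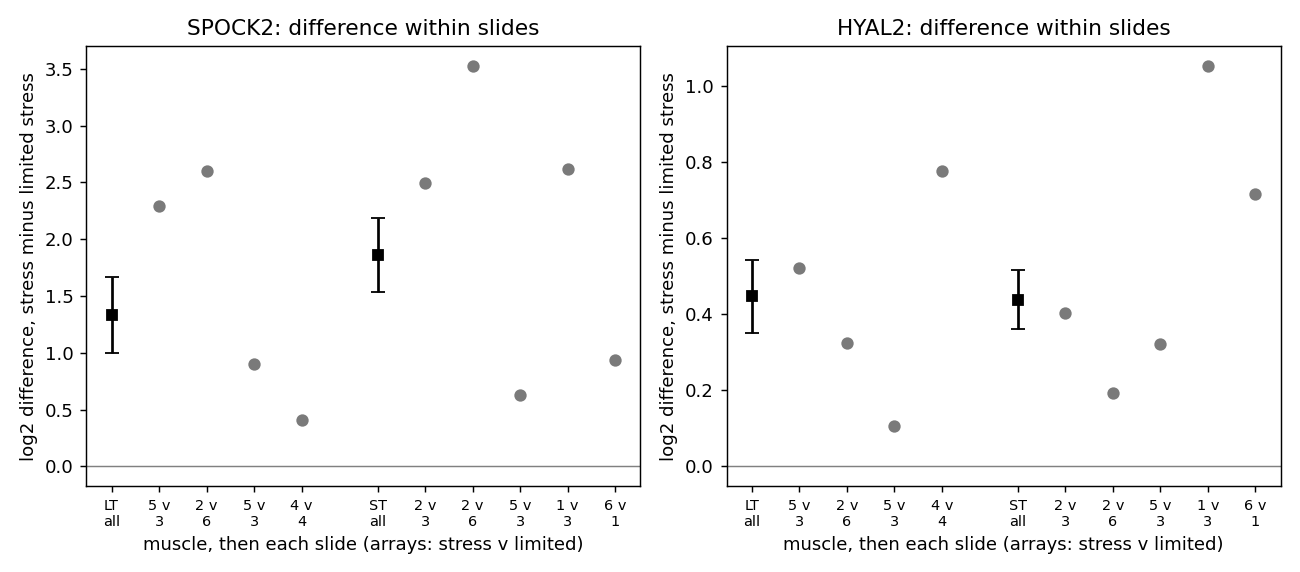
log2 difference of SPOCK2 and HYAL2 between stressed cows and cows with limited stress, over all arrays of a muscle (black squares, bars are the SE of the limma fit) and within each slide (grey points, labelled by the number of arrays with stress v limited stress). All 9 slides lie above 0 for both genes, and SPOCK2 reaches from 0.41 to 3.52.

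The probes of SPOCK2 were not alike. The distal probe was well above background on all 64 arrays. The CWCV probe had a median of 0.260% of the 75th percentile and was well above background on 15 of the 64 arrays, 8 of the LT and 7 of the ST, and did not pass the filter of 11 arrays in either muscle. In the LT of cows with limited stress its median signal was 9.02 units and its second highest signal 62.0 units, and in the LT of stressed cows the median was 7.36 units. The groups overlapped in both muscles, and a probe this near to background gives no level to compare. Averaged with this probe, which the filter leaves out, the stress difference of SPOCK2 was 0.34 in the LT and 1.11 in the ST. The LT value was 0.58 without the array of cow255, which gave 2477 units at the CWCV probe. This was still below the 1.33 of the distal probe alone. The custom probe set Target1612 has 5 probes, of which 1 shares 32 bases with the distal probe. All 5 probes had a higher signal with stress, with mean log2 differences of 1.12 to 1.36 in the LT and 1.65 to 1.95 in the ST. After subtraction of the group means, the signals of these probes had correlations with the distal probe between 0.968 and 0.996 over the 64 arrays, which share their RNA and their scaling.

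**Figure D3:**
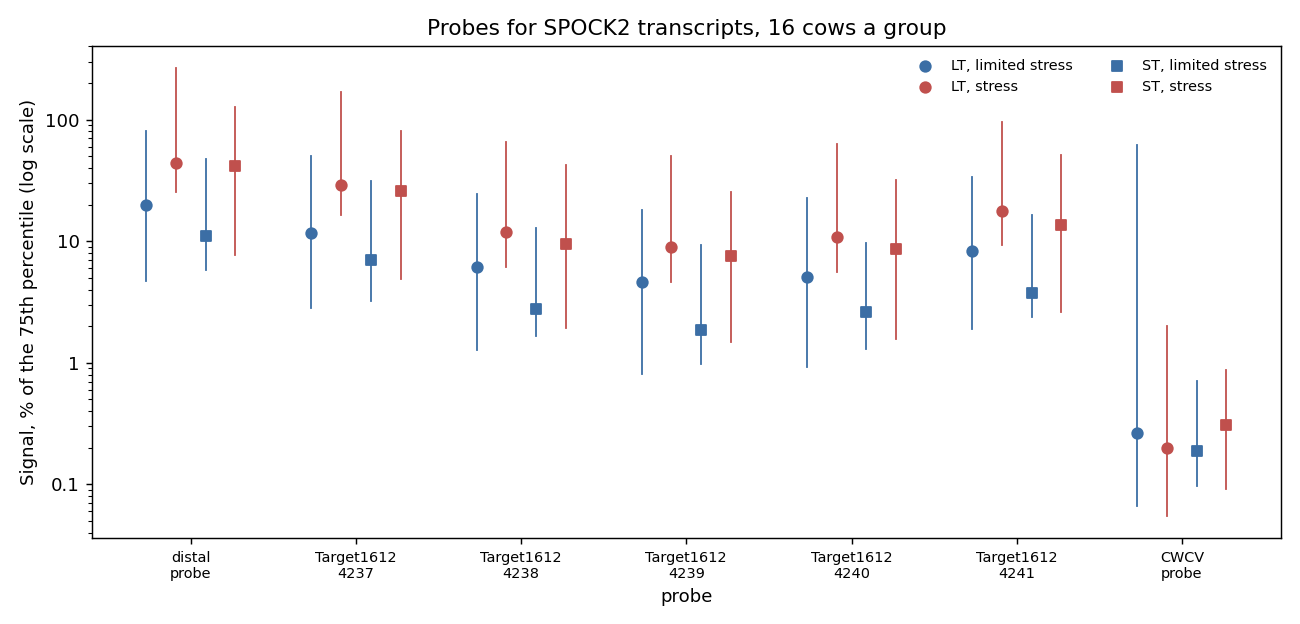
Signal of the distal SPOCK2 probe, the 5 probes of the custom set Target1612 (numbered as in the array files) and the CWCV probe of SPOCK2, as a percent of the 75th percentile on a log scale. Points are medians and lines reach from the lowest to the highest cow of the 4 groups of muscle and stress (at most 16 cows each). The median of the distal probe goes from 19.9% to 44.2% in the LT and from 11.1% to 41.9% in the ST, while the medians of the CWCV probe stay below 1%.

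The diet was tested to see whether vitamin E and plant extracts changed the level of the 2 genes or their difference with stress. On the control diet, the LT signal of SPOCK2 had a median of 17.9% with limited stress (12.5% to 50.8%) and of 39.2% with stress (25.5% to 81.7%). On the EP diet these medians were 20.7% (4.70% to 81.2%) and 57.6% (30.2% to 264%). In the ST they were 11.1% (7.20% to 28.4%) and 37.2% (7.76% to 107%) on the control diet. The EP diet gave 11.8% (5.74% to 47.2%) and 59.5% (29.7% to 126%) in the ST. The ranges of the diets overlapped in each stress group of both muscles. SPOCK2 was higher on the EP diet by 0.21 (95% CI -0.48 to 0.90, limma adjusted p = 0.999) in the LT and by 0.33 (95% CI -0.33 to 0.99, adjusted p = 0.949) in the ST on the log2 scale. Neither difference passed the test.

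SPOCK2 was higher with stress 2.20-fold on the control diet and 2.88-fold on the EP diet in the LT, and 2.83-fold and 4.65-fold in the ST. The interaction of stress and diet was 0.39 in the LT (95% CI -0.99 to 1.77, limma adjusted p = 0.9999). In the ST it was 0.71 (95% CI -0.61 to 2.04, limma adjusted p = 0.971). Stressed cows on the control diet were on only 2 of the 5 ST slides, so diet and slide are partly mixed in this muscle.

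HYAL2 differed little between the diets. The LT medians were 58.5% (46.4% to 68.2%) with limited stress and 71.8% (56.1% to 119%) with stress on the control diet. They were 50.4% (41.9% to 72.2%) and 76.0% (60.8% to 107%) on the EP diet. In the ST, the control diet had 48.1% (46.0% to 57.6%) and 70.4% (52.2% to 89.3%). The EP diet had 50.1% (40.6% to 55.9%) and 61.6% (57.4% to 101%) in the ST, and here all 8 stressed cows were above all 8 cows with limited stress. HYAL2 was lower on the EP diet by -0.04 in the LT (95% CI -0.23 to 0.16, limma adjusted p = 0.999). The same difference was -0.04 in the ST (95% CI -0.19 to 0.12, limma adjusted p = 0.965). The interaction of stress and diet was 0.21 in the LT (95% CI -0.18 to 0.61, limma adjusted p = 0.9999) and -0.0039 in the ST (95% CI -0.32 to 0.31, limma adjusted p = 0.999). For the diet and for the interaction, limma called 0% of all probes in either muscle, while an unadjusted p under 0.05 was found for 407 probes (LT) and 531 probes (ST) with the diet and for 276 and 491 with the interaction. Neither SPOCK2 nor HYAL2 was among them.

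The muscles were compared with the 64 arrays. SPOCK2 was lower in the ST than in the LT in 20 of the 32 cows, and the difference of a cow reached from -3.64 in cow280 to 1.47 in cow321 on the log2 scale. HYAL2 was lower in the ST in 26 of the 32 cows, with differences from -0.53 in cow258 to 0.20 in cow301. The mean difference was -0.51 (95% CI -0.99 to -0.03, limma adjusted p = 0.0683) for SPOCK2 and -0.17 (95% CI -0.29 to -0.05, limma adjusted p = 0.0165) for HYAL2. Both genes were called, but limma called 58.2% of all probes between the muscles, of which 26.6% of all probes were lower in the ST. Each slide and scan day held 1 muscle only, so the muscle cannot be told apart from slide and scan day, and with the slide as a random block the adjusted p was 0.226 for SPOCK2 and 0.103 for HYAL2. With the cow as a replicate block the differences were the same and the adjusted p was 0.0160 for SPOCK2 and 5.98e-04 for HYAL2.

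The cows were also followed from one muscle to the other. Cows with a high HYAL2 signal in the LT had a high signal in the ST. In the stressed cows, HYAL2 in the LT and in the ST had a Pearson correlation of 0.79 after subtraction of the diet means (n = 16, two-sided permutation test, p = 7.8e-04, adjusted p = 0.00624 over 8 relations). Spearman's rho was 0.75 (permutation test, adjusted p = 0.00784). The Pearson correlation was 0.60 without the 2 cows farthest from the median in the LT, and 0.78 after subtraction of the slide means. It did not pass the test with scaling on the control probes (0.47, permutation test, adjusted p = 0.177) or without scaling (0.62, adjusted p = 0.128). Cow324 (107% in the LT and 101% in the ST) and cow321 (119% and 89.3%) were the highest stressed cows in the ST, and both were among the 3 highest in the LT. In the cows with limited stress, the Pearson correlation of HYAL2 was 0.62 (permutation test, p = 0.0108, adjusted p = 0.0430). It was 0.38 without the 2 cows farthest from the median in the LT. Leaving out cows by their LT value also narrows the range, so the drop cannot show how far the correlation rests on them. The correlation was 0.71 after subtraction of the slide means. It did not pass the test with scaling on the control probes (0.36, permutation test, adjusted p = 0.322), with normexp (0.61, adjusted p = 0.0523) or without scaling (0.42, adjusted p = 0.399). Spearman's rho was 0.53 there and did not pass the adjustment (permutation test, adjusted p = 0.150). Over all probes, the same correlation had a median of 0.461 in stressed cows and of 0.398 in cows with limited stress. HYAL2 was above 90.2% of the probes in stressed cows and above 78.6% in cows with limited stress.

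SPOCK2 had correlations of 0.34 in stressed cows (permutation test, adjusted p = 0.330) and of 0.29 in cows with limited stress (adjusted p = 0.364) between the muscles. Neither passed the test, and these values were above those of 35.7% and 38.1% of the probes. Cow287 had the highest SPOCK2 signal in both muscles (264% in the LT and 126% in the ST). Cow280 had the highest value of its stress group in the LT (81.2%) and the third lowest in the ST (6.49%), and cow301 had 39.8% in the LT and 7.76% in the ST. No relation of the SPOCK2 and HYAL2 signals over cows passed the test in the 4 groups of muscle and stress. The Pearson correlations were -0.04 and -0.05 in the LT and 0.33 and -0.47 in the ST, for stressed cows and cows with limited stress in turn (n = 16 each, permutation tests, smallest adjusted p = 0.184). Whether the correlations of HYAL2 and SPOCK2 between the muscles differed was not tested.

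**Figure D4:**
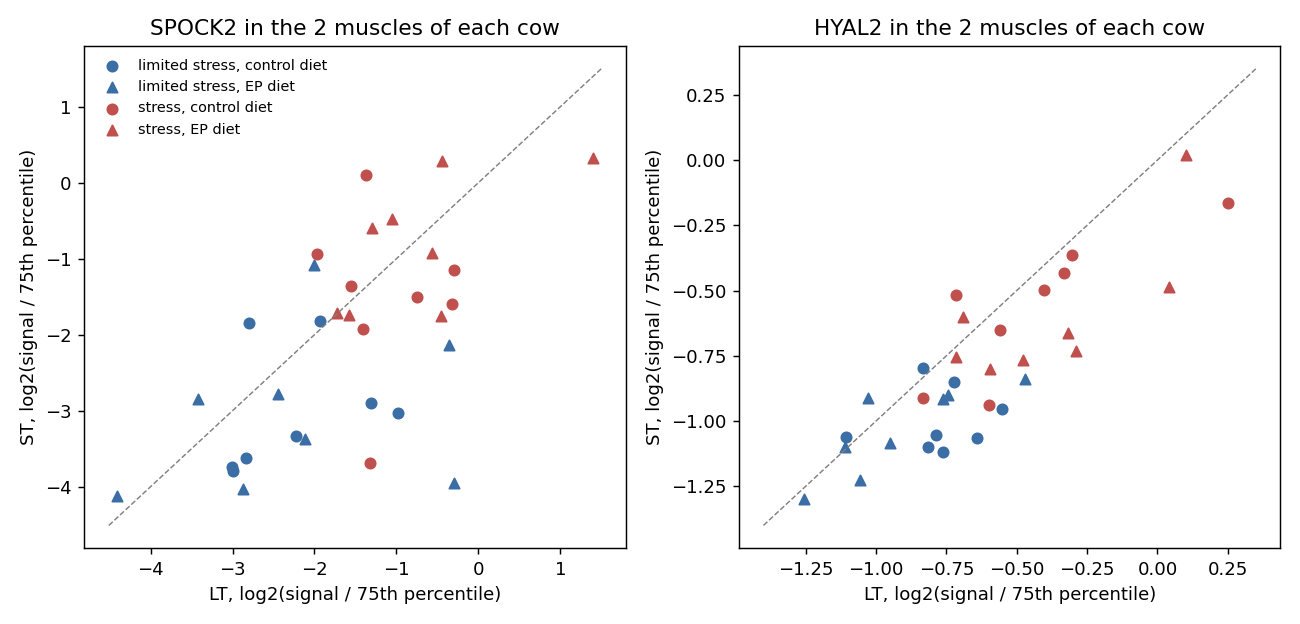
log2 of the signal over the 75th percentile in the ST against the LT of each of the 32 cows for SPOCK2 and HYAL2. Colours show stress (red) and limited stress (blue), symbols show the diet, and the dashed line marks equal values. The HYAL2 points lie mostly below the line, with 26 of 32 cows lower in the ST, and SPOCK2 has cow280 and cow301 far below it.

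After subtraction of the means of the 8 groups, the 5 other probes most like SPOCK2 over the 64 arrays were probes of the custom sets Target277 and Target925, with Pearson correlations of 0.57 to 0.59. A probe of Target277 shares 43 bases with the probe of LOC514457, described in the files as similar to calmodulin, which itself had a correlation of 0.55 with SPOCK2. The 5 probes most like HYAL2 belonged to the custom sets Target1182 and Target985, with correlations of 0.61 to 0.64, and these sets have no name in the files. Among the genes with a symbol, chosen after the values were seen, H3F3B, a gene of histone H3.3, had a correlation of 0.49 with SPOCK2, but 0.20 over the LT arrays and 0.71 over the ST arrays. For HYAL2 the highest were FABP5, a fatty acid binding protein (0.54), EFNA4, an ephrin ligand (0.53), NOTCH4, a Notch receptor (0.51), and TGM2, a transglutaminase (0.51). SPOCK2 and HYAL2 had a correlation of -0.0025 with each other in the same measure. These are descriptions over arrays that share slides and scaling.

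Other genes of hyaluronan, of proteoglycans and their relatives, of the synthesis of glycosaminoglycan chains, and of proteases and their inhibitors were taken from 4 fixed lists without SPOCK2 and HYAL2. Of the 156 listed genes 70 were on the array. In the LT, 60 genes were tested, of which 2 were higher and 2 lower with stress, by the rule that at least 80% of the probes of a gene pass an adjusted p of 0.1 in limma. By this rule 2.2% of all genes were higher and 1.53% lower in the LT. In the ST, 57 genes were tested, of which 3 were lower and none higher, beside 1.48% of all genes higher and 2.12% lower. At an unadjusted p under 0.05 by limma, 6 of the 57 were higher and 10 lower in the ST, beside 135 and 473 of all 4246 genes. In the LT these were 3 higher and 6 lower of the 60, beside 186 and 440 of all 4311 genes. The calls changed with the processing: with the cow as a replicate block 2 list genes were higher and 4 lower in the ST and 1 was higher in the LT, with the slide as a block none of the 57 genes was lower in the ST, and with scaling on the control probes none was called lower in either muscle or higher in the LT. The median log2 difference of the lists was -0.01 in the LT and -0.03 in the ST, beside -0.05 and -0.06 over all genes. The stress differences of SPOCK2 at the distal probe (1.33 and 1.86) lay above those of all list genes tested in the LT and in the ST. SPOCK2 was chosen by this difference and the list genes were not, so this order is no support for SPOCK2. Averaged with the CWCV probe, its differences of 0.34 and 1.11 did not lie above all list genes.

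Among the genes of hyaluronan, HYAL1, the lysosomal partner of HYAL2, had medians of 19.0% with limited stress and 20.6% with stress in the LT. In the ST they were 22.5% and 25.7%, and the differences of 0.13 (limma adjusted p = 0.603) and 0.28 (adjusted p = 0.274) did not pass the test. HYAL3 was well above background on 3 arrays and was not tested. SPAM1, the hyaluronidase of sperm, was lower with stress in the ST by -0.58 (limma adjusted p = 0.0320) but not called in the LT (-0.05, adjusted p = 0.895). Its tested probe had medians below 1% of the 75th percentile and was well above background on 8 of the 16 ST arrays with limited stress and on 6 of the 16 with stress. HAS3, which makes hyaluronan, had differences of -0.26 in the LT (limma adjusted p = 0.553) and of -0.05 in the ST (adjusted p = 0.856). HAS2, another hyaluronan synthase, was near background, well above it on 3 of 16 LT arrays with limited stress and 9 of 16 with stress, and was not called. In the LT, 0 of the 11 tested genes of this list were called by limma, and 0 had an unadjusted p under 0.05, beside 626 of all 4311 genes. In the ST, 3 of 10 had an unadjusted p under 0.05, 2 of them higher and 1 lower. Over all 4246 genes of the ST these were 608, with 135 higher and 473 lower.

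Among the proteoglycans and the relatives of SPOCK2, SPARC, the founder of the family, had medians of 684% with limited stress and 720% with stress in the LT. Its differences were 0.15 in both muscles (limma adjusted p = 0.647 in the LT and 0.746 in the ST). SPARCL1, another member, had differences of 0.04 and 0.03 (limma adjusted p = 0.862 and 0.937). GPC2, a glypican anchored at the cell surface, was lower with stress in the ST by -0.29 (limma adjusted p = 0.0293), and its difference of -0.13 in the LT was not called (adjusted p = 0.409). It was the only gene called of the 17 proteoglycan genes tested in each muscle. Of all genes, 2.2% were higher and 1.53% lower in the LT, and 1.48% higher and 2.12% lower in the ST. No list gene was called lower in the ST with control probes, normexp, no scaling, or the slide or scan day as a block.

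Among the enzymes that build glycosaminoglycan chains, NDST2, which modifies heparan sulphate, was lower with stress in both muscles, by -0.23 in the LT (limma adjusted p = 0.0315) and -0.21 in the ST (adjusted p = 0.0549). XYLT2, which adds the first sugar of the chain to the core protein, was lower in the LT by -0.48 (limma adjusted p = 0.00824) and had a difference of -0.35 in the ST (adjusted p = 0.118). The median log2 difference of this list was -0.08 in the LT and -0.10 in the ST. Among the proteases and their inhibitors, PLAT, the tissue plasminogen activator, was higher with stress in the LT by 0.40 (limma adjusted p = 0.0757). Its difference of 0.37 in the ST was not called (limma adjusted p = 0.200). The stress difference of PLAT, NDST2, XYLT2, GPC2 and SPAM1 was not called as different between the muscles (limma adjusted p = 0.999 for each), and limma called 0% of all probes for this.

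**Figure D5:**
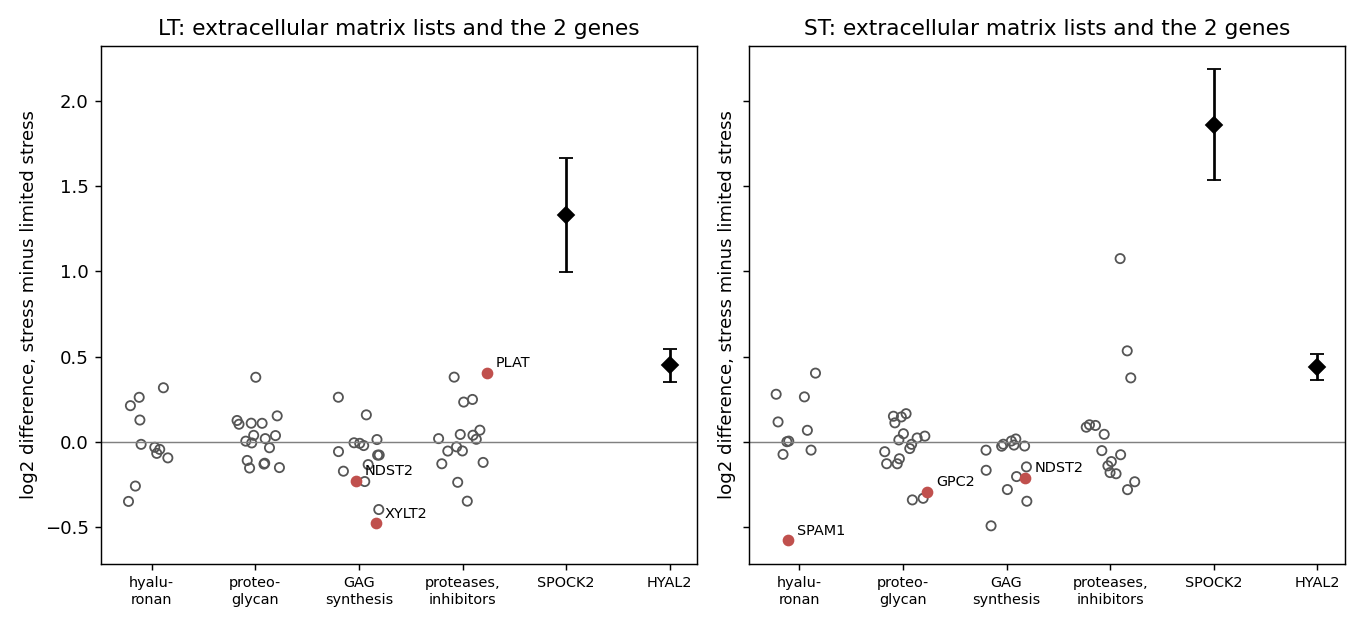
log2 difference with stress in the LT and the ST for genes of the 4 matrix lists (points, mean of the probes of a gene, red and named where called) and for SPOCK2 and HYAL2 (black diamonds with the SE of the limma fit). SPOCK2 (distal probe) lies at 1.33 and 1.86 and HYAL2 at 0.45 and 0.44, and both were chosen by this difference.

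Markers of other cell types were set beside these differences. None of the tested genes of the endothelium (4), fibroblast (5), fat (5), immune (2), nerve (1) and muscle (8) lists was called with stress by limma in either muscle, nor was the only blood gene tested, in the LT. At an unadjusted p under 0.05 these lists gave 0 of 26 genes for the LT and 2 of 25 for the ST, both lower, beside 626 of all 4311 genes and 608 of all 4246 genes. The summed level of the 4 endothelial markers on the array, of 10 listed, had a median of 99.7% with limited stress (71.4% to 136%) and of 95.4% with stress (74.4% to 199%) in the LT. In the ST it was 83.1% (42.1% to 108%) and 82.2% (54.6% to 130%). The 6 fibroblast markers of 10 listed had medians of 255.2% and 274% in the LT and of 285% and 303.4% in the ST. The 5 tested fat genes had a median log2 difference of -0.59 in the ST, beside -0.06 over all genes, and the summed level of the 6 fat markers had medians of 195% (122% to 936%) and 200% (101% to 617%) there. The part of fat cells in the ST differences of SPOCK2 and HYAL2 was not tested. The 2 immune markers of 11 listed had medians of 14.0% and 11.5% in the LT and of 13.0% and 13.4% in the ST. The ranges of the groups overlapped for each of these sums. Between the muscles, 2 of the 4 endothelial genes, PECAM1 (-0.34, limma adjusted p = 0.00577) and ESAM (-0.58, adjusted p = 1.12e-06), were lower in the ST. Of all probes, limma called 58.2% between the muscles and 26.6% lower in the ST, and the muscle cannot be told apart from slide and scan day. The part of the endothelium in the muscle difference of SPOCK2 and HYAL2 was not tested.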

How the data were processed

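RNA was hybridized to single-colour Agilent arrays scanned with Feature Extraction 10.1. The deposited intensity is the processed signal of a spot, from which the authors' software had subtracted the background. The series table held the same values. For this report, flagged spots were left out, duplicate spots averaged, and signals divided by the 75th percentile of the array. A probe entered the tests of a muscle when 11 or more of its 32 arrays had it well above background. Tests used limma 3.58.1 (R 4.3.3) with stress, diet and their interaction in each muscle and an adjusted p (Benjamini-Hochberg) under 0.1. The model of the paper also held the period, which the sample labels do not give, so it was left out of every fit. A gene was called when 80% of its tested probes passed. Muscles were compared over all 64 arrays. The same cow gave both muscles, and the deviations of its arrays correlated at 0.102 to 0.756 (32 of 32 cows over 0.1), so cows were also a block. Permutation tests used 100000 resamples (scipy 1.17.1). The fit was tested on simulated data, where it recovered 70% of LT probes changed by 0.5 and 97% of those changed by 1 (log2). Named genes were SPOCK2, HYAL2, the matrix list genes called with stress and the 5 most similar probes; HYAL1, HYAL3, HAS2, HAS3, SPARC, SPARCL1, PECAM1 and ESAM were named after their values were seen. The members and lists were chosen with earlier results of these data known. Of 5449 names, 1857 had an accession in the RefSeq table. The number of arrays limits the precision. P-values within a muscle and those of the correlations measure the spread between cows. Those that compare the muscles without the cow as a block treat the arrays of 1 cow as independent. One called list gene is counted but not reported here by name or in the plots.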

Additional observations from a re-analysis of the deposited data

Results flagged for a closer look

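In 3 of the 24 groups of 8 cows searched over the 3 probes, 1 cow stood apart from the others of its group. The measure was its gap to the nearest cow over the whole range of the group, both on the log2 scale. This ratio was set against Dixon's 95% critical value, and chance gives about 1 in 20 groups. Cow287 had a SPOCK2 signal of 264% of the 75th percentile (8325 units) in the LT of stressed cows on the EP diet, with a ratio of 0.590. Without this cow the stress difference of SPOCK2 in the LT was 1.18. Cow324 had a HYAL2 signal of 101% (3722 units) in the ST of stressed cows on the EP diet, with a ratio of 0.615, and the stress difference of HYAL2 in the ST was 0.39 without it. Cow255 had a signal of 62.1% (2477 units) at the CWCV probe of SPOCK2 in the LT with limited stress on the control diet, with a ratio of 0.579, while the distal probe of SPOCK2 gave 573 units on the same array. The cause was not tested.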

How the results depend on the processing

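Of the values recomputed under the alternatives, 168 were counted as kept, of which 165 kept their sign, and 12 moved, 12 reversed and 10 no longer passed. A value counted as kept can still have moved by more than its SE. Without a filter, the stress difference of SPOCK2 was 0.34 in the LT, against 1.33 (SE 0.337) with it. In the ST it was 1.11, against 1.86 (SE 0.324). Both are counted among the 168. The random slide and scan day blocks and the values without 1 cow were chosen after seeing the data. With scaling on the control probes, the diet difference of HYAL2 was 0.16 in the LT and 0.032 in the ST, its interaction -0.094 and 0.094, and its stress difference in the ST minus the LT 0.26 (0.047 with normexp, 0.10 unscaled and 0.014 with the slide as a block, against -0.0096). The HYAL2 interaction in the ST was 0.017 unscaled and 0.025 with the scan day as a block. Without a filter, SPOCK2 gave -0.016 for diet in the LT and -0.34 for ST minus LT. Values of SPOCK2 that were not called also moved by over 1.5 times: the LT diet difference was 0.41 with control probes and 0.073 with the slide as a block, the ST diet difference 0.52 with the scan day as a block, the LT interaction 0.084 with control probes and 1.22 without a filter, and the ST interaction 1.14 with the scan day as a block. For ST minus LT, the random slide and scan day blocks gave -0.48 and -0.48 for SPOCK2 and -0.17 and -0.17 for HYAL2, no longer called; slide or day as a fixed block could not be fitted, since each holds 1 muscle. With the replicate block (cows paired), ST minus LT stayed at -0.51 and -0.17. List genes higher in the LT numbered 0 (control probes), 1 (unscaled) and 1 (replicate block), and lower 0 and 1 (control probes, unscaled). In the ST, 2 were higher with the replicate block, and 0 lower with control probes, normexp, unscaled, slide or scan day. HYAL2 between muscles correlated at 0.47 and 0.62 (stress; control probes, unscaled) and at 0.36, 0.61 and 0.42 (limited stress; control probes, normexp, unscaled). SPOCK2 with HYAL2 reversed to 0.14 (LT, stress, control probes), 0.34 and 0.13 (LT, limited stress; control probes, unscaled), and 0.48 and 0.13 (ST, limited stress). The cause was not tested.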
